A study of Mus musculus with 3 samples.

Results

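The sites described here are the places, away from gene starts, where TRα1 was found on chromatin of mouse striatum with its classical recognition sequence close to the summit of the signal. A site was included when its summit lay more than 1 kb from the nearest 5′ end of a protein-coding gene and when a DR4 element, that is 2 copies of AGGTCA in the same direction with 4 bases between them, lay within 100 bp of the summit on either strand, with at most 1 mismatch in the 12 half-site bases. Of the 23988 sites of the peak list, 19094 were distal in this sense and 700 of these held a DR4 element. These 700 are called distal DR4 sites below. Of them 674 were also more than 1 kb from the 5′ end of any gene, and 664 from any transcript start of a protein-coding gene.

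TRα1 ChIP-seq was made from striatum of adult male C57BL/6J mice of the genotype TRa1 GS-tagged, in which GABAergic neurons of the striatum carried the tagged receptor. There were 2 ChIP TRa libraries and 1 Input library, all from euthyroid mice without treatment, with an age labelled 8 and no unit. All libraries carried the tagged receptor, so that no library without it was compared, and the driver that restricts the tag to these neurons was not given in the labels. The processed data were 1 peak list with 1 value per site, so that values could not be compared between libraries, the depth of each library is unknown, and every interval below is a 95% interval for counting error over sites or elements, not for the spread between mice.

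Thyroid hormone receptors are nuclear receptors that stay on chromatin with and without their ligand T3, mostly as heterodimers with the retinoid X receptor RXR. Each partner holds 1 half-site of the direct repeat, RXR usually the upstream one and the thyroid hormone receptor the downstream one. GABAergic projection neurons make up most of the neurons of the striatum, and their maturation and function are known to depend on thyroid hormone.

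The sequences of 23 of these sites are shown first, because the base composition of the element is what the values below turn on. They were read from the RefSeq sequence of GRCm38.p6, 40 bases each, 5′ to 3′ in the direction of the element. The half-sites are in capitals, with the 4 spacer bases between them and 12 flanking bases on each side in lower case. Substitutions are counted from 1 at the 5′ end of the element, so that positions 1 to 6 are the upstream half-site, 7 to 10 the spacer and 11 to 16 the downstream half-site. Sites are named by the nearest 5′ end of a protein-coding gene. The first 8 are those with the highest fold enrichment, which is the pileup of ChIP fragments over the local background.
Cyp46a1, chr12:108338995-108339034, minus strand, T4G: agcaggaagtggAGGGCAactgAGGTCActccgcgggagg
Ppp1ca, chr19:4196233-4196272, plus strand, T14C: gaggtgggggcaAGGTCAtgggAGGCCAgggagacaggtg
Cmya5, chr13:93029474-93029513, minus strand, G2A: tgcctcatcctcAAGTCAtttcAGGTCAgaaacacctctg
Thbs4, chr13:92799745-92799784, plus strand, no mismatch: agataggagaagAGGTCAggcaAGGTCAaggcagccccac
Siae, chr9:37573195-37573234, plus strand, C15A: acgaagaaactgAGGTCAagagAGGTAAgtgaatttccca
Grip1, chr10:119531520-119531559, minus strand, C15G: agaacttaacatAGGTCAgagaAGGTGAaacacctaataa
Arhgap20, chr9:51717318-51717357, plus strand, C15G: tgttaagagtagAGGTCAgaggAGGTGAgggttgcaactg
Pwwp2b, chr7:139300481-139300520, plus strand, T4G: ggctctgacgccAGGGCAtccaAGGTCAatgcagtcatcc

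The next 7 are, after Thbs4, the strongest sites whose element matched both half-sites in full. Here the spacer is the only part of the element that varies.
Mme, chr3:63317562-63317601, minus strand: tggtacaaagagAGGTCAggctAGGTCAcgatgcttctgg
Myo3b, chr2:70191104-70191143, minus strand: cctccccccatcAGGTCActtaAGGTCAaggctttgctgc
Csmd1, chr8:17529716-17529755, plus strand: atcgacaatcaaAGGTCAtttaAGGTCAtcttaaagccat
Trim45, chr3:100880998-100881037, minus strand: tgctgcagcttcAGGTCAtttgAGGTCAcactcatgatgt
Fam49a, chr12:12357149-12357188, plus strand: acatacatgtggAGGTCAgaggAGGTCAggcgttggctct
Khdc1b, chr1:21459163-21459202, plus strand: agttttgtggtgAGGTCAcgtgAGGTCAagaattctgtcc
Rasgrp1, chr2:117296917-117296956, plus strand: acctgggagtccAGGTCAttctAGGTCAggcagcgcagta

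The last 8 lie within 30 kb of the 5′ end of genes of the thyroid hormone response, of striatal neurons, of nuclear receptors and of the circadian clock, which are described further on.
Klf9, chr19:23137451-23137490, plus strand, C5G: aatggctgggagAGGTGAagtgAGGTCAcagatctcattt
Fndc5, chr4:129133841-129133880, plus strand, A16C: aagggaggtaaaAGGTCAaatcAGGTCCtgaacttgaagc
Foxp1, chr6:99506897-99506936, plus strand, C5G: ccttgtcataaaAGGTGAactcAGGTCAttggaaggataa
Gng7, chr10:81018406-81018445, minus strand, T14C: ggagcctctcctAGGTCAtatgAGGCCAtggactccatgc
Ano3, chr2:110976570-110976609, plus strand, T4G: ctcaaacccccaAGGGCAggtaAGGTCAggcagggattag
Ppara, chr15:85706096-85706135, plus strand, T14C: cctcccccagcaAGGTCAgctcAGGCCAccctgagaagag
Cry2, chr2:92445998-92446037, minus strand, A16T: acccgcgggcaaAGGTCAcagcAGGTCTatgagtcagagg
Csnk1d, chr11:120975163-120975202, minus strand, C15A: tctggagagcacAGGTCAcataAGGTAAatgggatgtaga

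DR4 elements were present at 3.67% of the 19094 distal summits (interval 3.41 to 3.94). In windows of the same length 5 kb to the right of the same summits the share was 0.215%, or 41 windows, and 5 kb to the left it was 0.141%, or 27 windows. The element is what defines the sites, so that these shares are given as a description. The element nearest to the summit had no mismatch in 106 of the 700 sites and 1 mismatch in 594. A single element lay in the window of 673 sites, and 27 sites held 2 or more. Elements lay on the plus strand in 357 sites. The limit of 1 kb fell between the site of Gm10840, at 1024 bp, and that of Adamts5, at 992 bp, with fold enrichments of 5.52 and 7.07. The 66 sites whose element only reached 80 to 100 bp from the summit had a median fold enrichment of 7.10, and 58 sites just outside, at 100 to 120 bp, had 6.69.

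The rule did not use the 4 spacer bases, and these set the bound elements apart from the unbound ones. The third spacer base was thymine in 52.4% of the 700 sites (367 sites, interval 48.7 to 56.1). Among 20951 DR4 elements of the genome that met the same limits of distance and mismatch but lay in no site, it was thymine in 18.9% (interval 18.4 to 19.4). The difference was 33.5 percentage points (Newcombe interval 29.8 to 37.3). Adenine was the commonest base there in the unbound elements, with 39.1%, and was found in 8.29% of the sites. Cytosine was found in 28.4% of the sites and 18.7% of the unbound elements, and guanine in 10.9% and 23.3%.

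Some of the unbound elements lie in repeats, which the reference sequence masks by lower case. Masked sequence held 9.71% of the elements of the sites (68 sites) and 31.8% of the unbound ones, a difference of -22.1 points (-24.2 to -19.6). Outside masked sequence the third base was thymine in 54.1% of 632 sites and in 24.1% of 14284 unbound elements, a difference with an interval of 26.0 to 33.9 points. In the windows 5 kb to either side of distal summits, which held 68 elements in all, thymine was found in 25.0% (interval 16.2 to 36.4), and the sites were above them by 27.4 points (15.4 to 36.9). The 2142 distal sites whose best element had 2 mismatches share no site with the 700. They had thymine at this position in 51.3% (49.1 to 53.4), which differed from the distal DR4 sites by 1.17 points with an interval of -3.09 to 5.41. The 45 promoter sites with a DR4 element had it in 35.6% (23.2 to 50.2), below the distal ones by an interval of 1.80 to 29.7 points.

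The other spacer and flanking positions differed less. The first spacer base was guanine in 27.1% of the sites and in 42.1% of the unbound elements, a difference of -15.0 points (-18.2 to -11.5), or -9.91 points (-13.1 to -6.38) outside masked sequence. The second was adenine in 26.3% and 35.2%, a difference of -8.88 points (-12.1 to -5.44), or -4.55 points (-7.87 to -0.939) outside masked sequence. The fourth spacer base was guanine in 42.4% of the sites and in 32.0% of the unbound elements. This difference of 10.4 points (6.74 to 14.1) was 14.8 points (10.9 to 18.7) outside masked sequence. Thymine was found there in 8.14% and 17.2%. Thymine followed by guanine ended the spacer of 190 sites, or 27.1% (24.0 to 30.6), against 6.09% of the unbound elements, and this ending is seen above at Cyp46a1, Trim45, Khdc1b, Klf9 and Gng7. Just after the downstream half-site, cytosine was found in 33.1% of the sites and in 21.4% of the unbound elements. This difference of 11.7 points (8.26 to 15.3) was 9.45 points (5.80 to 13.3) outside masked sequence. Just before the upstream half-site, guanine was found in 41.3% and 36.7%. There the difference was 4.59 points (0.941 to 8.33), or 11.2 points (7.42 to 15.2) outside masked sequence. The 700 spacers were of 174 kinds. The commonest was AATG, with 23 sites, followed by TCTG with 21, TTTG with 20, GCTG with 19 and CCTG with 18. The spacer GAAG made up 9.94% of the unbound elements and was found in 13 sites, or 1.86%, both in all sequence. Its ending, adenine followed by guanine, made up 18.9% of the unbound elements in all sequence and 10.3% outside masked sequence.

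**Figure D1:**
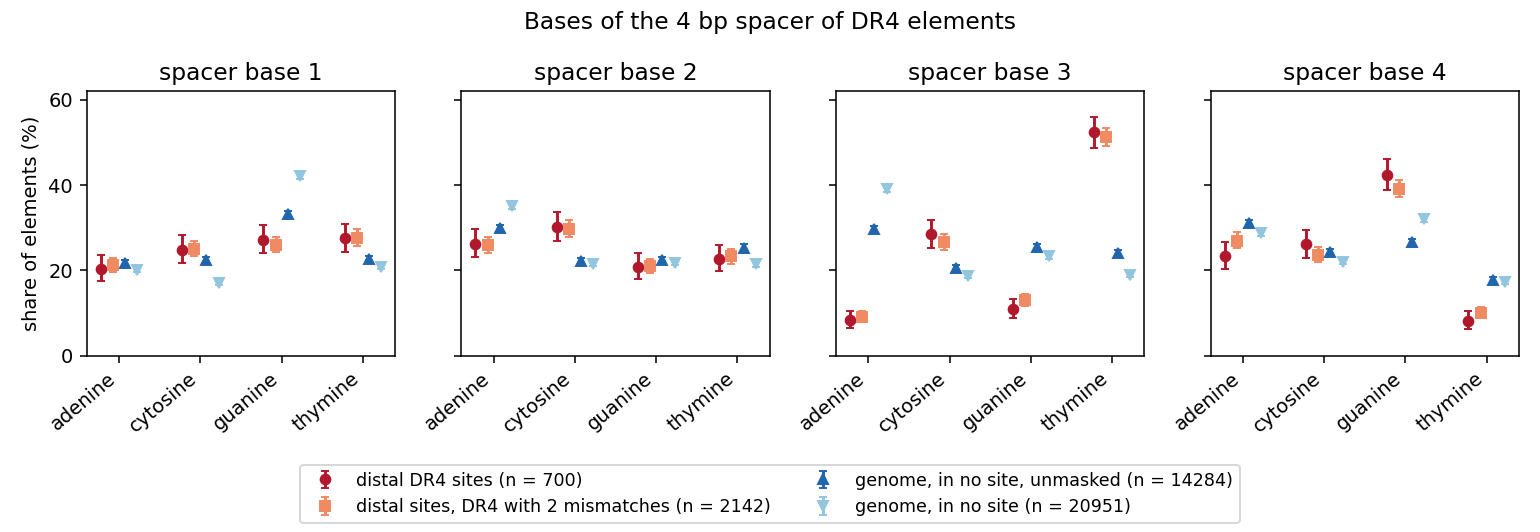
Share of elements (y axis, percent) with each base (x axis) at the 4 positions of the spacer, with 95% Wilson intervals, in the 700 distal DR4 sites, in 2142 distal sites with a DR4 of 2 mismatches, and in DR4 elements of the genome that lay in no site, all 20951 or the 14284 in unmasked sequence. At the third position both kinds of site had thymine in 52.4% and 51.3% of the elements, against 18.9% and 24.1% of the unbound elements.

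The same values can be read from the side of the genome, as the share of all elements that were occupied. Of 21917 distal elements with at most 1 mismatch, 763 lay within 100 bp of a summit, which is 3.48% (3.25 to 3.73). These 763 include the several elements of the 27 sites with more than 1, and those are not independent of each other. Elements without a mismatch were occupied in 12.6% (140 of 1107), and those with 1 mismatch in 2.99%, a difference of 9.65 points (7.81 to 11.8). Unmasked elements were occupied in 4.39% and masked ones in 1.46%. How far the mapping of reads to repeats has a part in this was not tested.

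The third spacer base separated the occupied shares as well. They were 9.21% with thymine (411 of 4464), 5.01% with cytosine, 1.68% with guanine and 0.712% with adenine. Among elements without a mismatch, 29.7% of those with thymine were occupied (88 of 296, interval 24.8 to 35.2). The share was 18.7% with cytosine (39 of 209), 2.28% with guanine (6 of 263) and 2.06% with adenine (7 of 339). Thymine was above adenine by 27.7 points (22.3 to 33.2) and above cytosine by 11.1 points (3.44 to 18.3), while the interval for guanine against adenine, -2.25 to 3.03, included 0. The 140 occupied elements without a mismatch stand beside 111 distal sites that held one, so that some shared a site. These intervals count each element as independent and may be too narrow. An element with 1 mismatch and thymine was occupied in 7.75%, more often than an element without mismatch and with adenine, by 5.68 points (3.41 to 7.04). Outside masked sequence, 30.2% of the elements without mismatch and with thymine were occupied, and 3.07% of those with adenine.

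The occupied shares also differed by the last spacer base. Elements whose spacer ended in thymine and guanine were occupied in 12.9% (195 of 1512), and those ending in 2 thymines in 3.12% (25 of 801), a difference of 9.78 points (7.62 to 11.8). Cytosine followed by guanine, a rare ending, was occupied in 16.2% (34 of 210, interval 11.8 to 21.8). Adenine followed by thymine had the lowest share, 0.195% (2 of 1026).

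**Figure D2:**
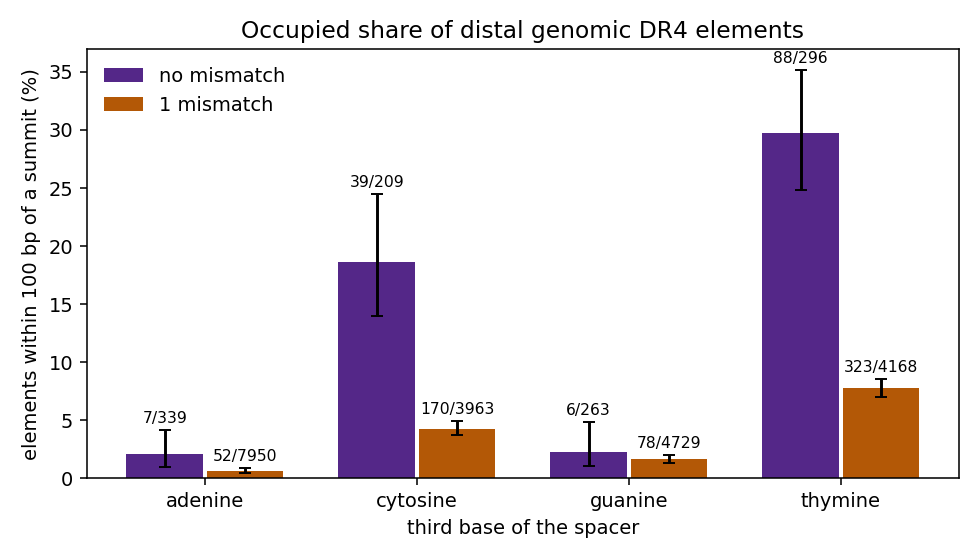
Share of distal DR4 elements of the genome that lay within 100 bp of a summit (y axis, percent) by the third base of the spacer (x axis) and the number of mismatches (colours). Bars are shares with 95% Wilson intervals, and the numbers above them are occupied over all elements. Elements with thymine were occupied in 29.7% without a mismatch and 7.75% with 1 mismatch, while those with adenine or guanine stayed at or under 2.28%.

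Where the mismatch fell within the half-sites was not free either. The upstream half-site held it in 46.3% of the 594 sites with 1 mismatch (42.3 to 50.3) and in 41.3% of the unbound elements with 1 mismatch. This difference of 4.98 points (0.946 to 9.06) turned to -2.02 points (-6.30 to 2.30) outside masked sequence. Single positions did differ. The first base of the upstream half-site held 12.5% of the mismatches in the sites against 4.38% in the unbound elements, and almost all of these were A1G, with 72 sites or 12.1% against 2.05%. The second base of the downstream half-site held 6 of the 594 mismatches, or 1.01%, against 5.76%. The commonest substitution was T14A, in 75 sites or 12.6% against 6.09%, which changes the fourth base of the downstream half-site. A1G came next, and after it T14C with 46 sites or 7.74% against 5.38%, as in the elements of Ppp1ca, Gng7 and Ppara above. T14G was found in 39 sites, or 6.57%, and made up 12.2% of the mismatches of the unbound elements. These shares of single substitutions are for all sequence. The fourth downstream base as a whole held 26.9% of the mismatches in the sites and 23.7% in the unbound elements. Outside masked sequence it held 24.6% and 13.3%.

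As occupied shares, elements with the mismatch in the first upstream base were at 8.07% (79 of 979), above the elements with a mismatch elsewhere by 5.33 points (3.76 to 7.21). The fifth downstream base followed with 4.96% (81 of 1633), 2.13 points above the rest (1.15 to 3.32), and the strong sites of Siae, Grip1 and Arhgap20 carried their substitution there. The lowest shares were those of the second and the third downstream bases, with 0.604% (7 of 1159) and 0.965% (19 of 1969). These values are for all sequence. The fourth downstream base moved from 3.38% in all sequence to 6.94% in unmasked sequence, further than any of the other 11 positions. In unmasked sequence it was 3.51 points above the rest (2.42 to 4.76), and it stood above the fifth downstream base, at 6.19%.

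**Figure D3:**
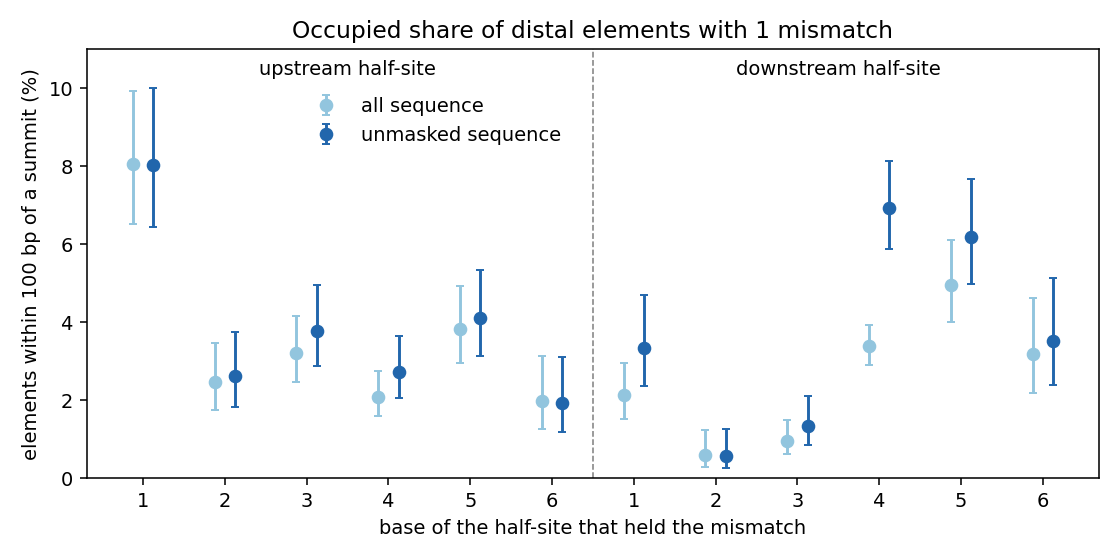
Occupied share (y axis, percent, within 100 bp of a summit) of distal DR4 elements with 1 mismatch by the base that held it (x axis, 1 to 6 in each half-site), with 95% Wilson intervals, in all sequence and outside masked sequence. The first base of the upstream half-site stood highest in all sequence, at 8.07%, and the second and the third bases of the downstream half-site lowest, at 0.604% and 0.965%.

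The elements lay close to the summits, beyond what the 100 bp window asks for. Their centre was at a median of 28.5 bp from the summit, within 50 bp in 523 sites and within 25 bp in 319, or 45.6% (41.9 to 49.3). Repeats of the same half-site with the other 8 spacings from 0 to 8 bp, found at distal summits by the same search, had their centre within 25 bp in 33.2% (136 of 410 repeats). The DR4 elements were above them by 12.4 points (6.45 to 18.1). The 410 include repeats at the distal DR4 sites themselves, from 4 with a spacing of 7 bp to 15 with a spacing of 1 bp. No other single spacing reached the share of DR4, with 21.2% for a spacing of 7 bp up to 41.9% for 6 bp, but each rests on 31 to 71 repeats and the intervals of 4 of the 8 include the share of DR4. The summit lay on the downstream side of the element in 53.1% of the sites (49.4 to 56.8), an interval that includes an even split.

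**Figure D4:**
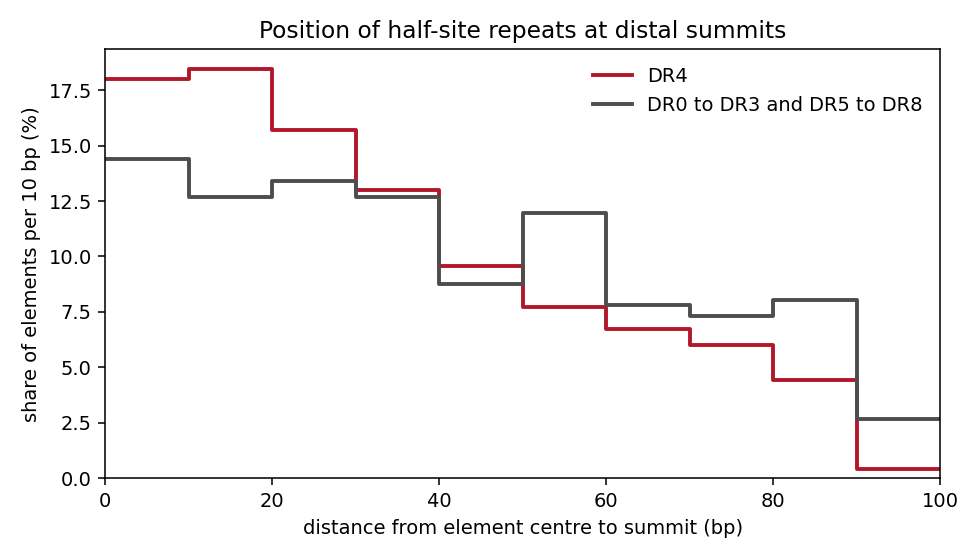
Distance from the centre of the element to the summit (x axis, bp, in steps of 10) and the share of elements in each step (y axis, percent), for the 700 DR4 elements and for 410 half-site repeats with the other 8 spacings at distal summits, those of the distal DR4 sites included. Of the DR4 elements, 45.6% lay within 25 bp, against 33.2% of the other repeats.

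The position went with the strength of the site. When the sites were put into 5 groups by fold enrichment, the highest group held 137 sites, from 12.4 to 71.0. In it, 59.1% of the elements were centred within 25 bp of the summit (50.8 to 67.0). In the lowest group (140 sites, up to 5.95) it was 42.1% (34.3 to 50.4), lower by 17.0 points (5.21 to 28.1). The share did not climb evenly between them, with 33.3%, 48.9% and 45.5% in the 3 middle groups. For the third spacer base no such difference was detectable. It was thymine in 55.5% of the highest and 50.7% of the lowest group, and the difference of 4.76 points had an interval of -6.91 to 16.3. A match without mismatch was found in 16.1% and 12.1%.

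The fold enrichment of the 700 sites ran from 4.50 to 71.0 with a median of 7.81, and their pileup from 14 to 191 fragments with a median of 22. The 18394 distal sites without such an element had median values of 7.15 and 20, and their fold enrichment ended at 123. A fold enrichment of at least 20 was reached by 48 of the 700 sites, or 6.86% (5.21 to 8.97), where it was reached by 8.44% of all distal sites. The difference from the distal sites without DR4 was -1.65 points, with an interval of -3.34 to 0.508 that includes 0. This comparison depended on the settings: it was 3.02 points (1.84 to 4.29) with 2 mismatches allowed, and -2.54 with elements up to 200 bp away, -2.36 beyond 5 kb from a 5′ end, -4.46 at a score of at least 100 and -6.24 at a score of at least 200, each with an interval that excluded 0. At a fold enrichment of at least 10 the shares were 30.4% and 28.8% (difference -1.76 to 5.17). The 2142 distal sites with a DR4 of 2 mismatches had higher values, with a median of 8.18. Of them 12.4% reached 20, and the distal DR4 sites differed from them by -5.51 points (-7.72 to -3.02). Of the 45 promoter sites with a DR4, 14 reached 20, and their median was 12.8. Distal sites with the AP-1 motif TGANTCA and no DR4 reached it in 10.3%, and the distal DR4 sites differed from these by -3.44 points (-5.50 to -1.04). Sites without a mismatch and with 1 had medians of 7.72 and 7.81, and 4.72% (2.03 to 10.6) and 7.24% (5.42 to 9.61) of them reached 20.

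**Figure D5:**
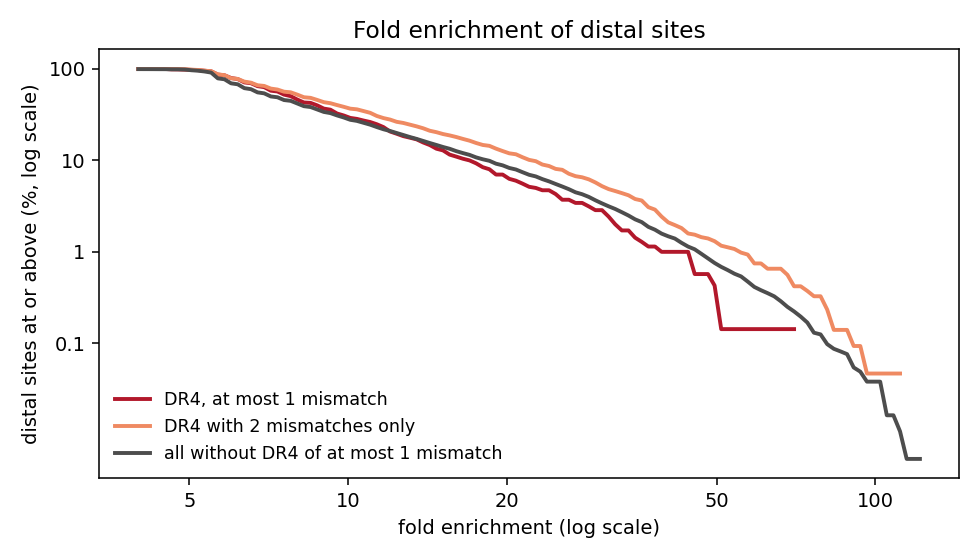
Share of distal sites (y axis, percent, log scale) at or above each fold enrichment (x axis, log scale) for the 700 sites with a DR4 of at most 1 mismatch, the 2142 sites with a DR4 of 2 mismatches only, and all 18394 distal sites without a DR4 of at most 1 mismatch, which include the 2142. At 20 the curves stand at 6.86%, 12.4% and 8.50%.

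The 15 strongest sites had pileups of 87 to 191. The strongest of all, with a fold enrichment of 71.0 and a pileup of 190, lay in an intron of Cyp46a1, 4611 bp past its 5′ end. Cyp46a1 encodes the cholesterol 24-hydroxylase, through which neurons turn over cholesterol. A site with a fold enrichment of 50.6 had its summit in a coding exon of Rad9a, 4191 bp downstream of the 5′ end of Ppp1ca, the catalytic subunit alpha of protein phosphatase 1. The site of Cmya5 had a fold enrichment of 49.7 and lay 115244 bp from the 5′ end, and that of Thbs4 had 48.3 and lay 4956 bp upstream. Thbs4 encodes a thrombospondin of the extracellular matrix, and its site was the strongest one without a mismatch. The sites in introns of Siae and Grip1 had the same fold enrichment, 45.0, on a pileup of 120. Grip1 encodes a scaffold protein that binds AMPA receptors, and the site was 77734 bp inside the gene.

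Among the remaining strong sites, that of Arhgap20 (44.3) was intergenic, and its element lay in masked sequence, as did that of Siae. The site of Pwwp2b had the highest pileup of the 700, 191, with a lower fold enrichment of 39.3. Mme, which encodes the peptidase neprilysin, held a site without a mismatch in an intron (36.8, pileup 98). The others were those nearest to 4930535I16Rik (35.7), Map6d1 (35.0), Pdcd4 (34.8, in an intron of Rbm20), Pcp4 (32.7), Gm11733 (32.7) and Tbc1d2 (31.6, in an intron of the GABA-B receptor gene Gabbr2). Pcp4 encodes a small calmodulin-binding protein, and its site lay 66791 bp from the 5′ end. Of these 15 sites, 2 had no mismatch, 4 had thymine as the third spacer base, 11 had the element centred within 25 bp of the summit and 10 were more than 30 kb from the nearest 5′ end. Over all 700 sites, 15.1% had no mismatch, 52.4% had this thymine and 45.6% had the element centred within 25 bp. A 5′ end lay within 30 kb of 39.6% of the 700.

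The strongest sites without a mismatch, after Thbs4 and Mme, were in introns of Myo3b (fold enrichment 21.6, 152013 bp from the 5′ end) and Csmd1 (20.8), and nearest to Trim45 (20.1, in an intron of Vtcn1). Those of Fam49a (18.6), Khdc1b (17.4, in an intron of the potassium channel gene Kcnq5), Rasgrp1 (16.4), Phtf2 (15.6) and Mn1 (15.2) completed the 10, and the site of Cnot2 had the same fold enrichment and pileup as that of Mn1. Rasgrp1 encodes an activator of Ras that is abundant in the striatum. Of the 106 sites without a mismatch, 63 had thymine as the third spacer base, which is 59.4% (49.9 to 68.3) against 20.7% of the 943 unbound elements without a mismatch.

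Most distal DR4 sites were inside genes. The summit lay in an intron of a protein-coding gene at 416 sites, or 59.4% (55.7 to 63.0), against 53.4% of all distal sites. Distal sites without DR4 were at 53.1%, lower by 6.30 points (2.55 to 9.95), a difference of 5.06 points (-1.73 to 11.5) at a score of at least 200. Sites between genes made up 33.4% and 39.8% (difference -9.85 to -2.74). Of the 50 remaining sites, 22 were in untranslated exons, 18 in coding exons and 10 in exons of non-coding transcripts of these genes. The site lay downstream of the nearest 5′ end in 64.4%, next to 63.0% of the distal sites without DR4 (difference -2.30 to 4.92). The median distance to this end was 45327 bp, next to 44392 bp for the distal sites without DR4. Another site of the list was present within 10 kb of 246 sites, or 35.1% (31.7 to 38.8), where 39.2% of all distal sites had one. The difference from the distal sites without DR4 was -4.17 points (-7.69 to -0.492). Its interval included 0 without mismatches (-7.67), for elements within 50 bp (-1.84) and at a score of at least 200 (-1.59). The median GC content of the windows was 47.8% and 48.3%.

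Other motifs were searched in the same windows as exact matches on both strands, with the DR4 elements left out. The 16 bases of an element were thus closed to the search at the distal DR4 sites. At the distal sites without DR4 all bases were searched, so that the shares of the distal DR4 sites rest on fewer bases. The shares were not corrected for this, and its part in the differences below was not tested. The AP-1 motif TGANTCA was found at 70 of the 700 distal DR4 sites (7.99 to 12.4%) and at 13.7% of the distal sites without DR4, a difference of -3.73 points (-5.80 to -1.24). Its interval included 0 without mismatches (-1.90) and at a score of at least 200 (-3.32). It was found in 6.05% of the windows 5 kb to the right of all distal summits, and in 6.29% of those 5 kb to the right of the distal DR4 sites, which were above these by 3.71 points (0.846 to 6.62). The GC box GGGCGG was found at 21 of the 700 sites (1.97 to 4.54%) and at 9.51% of the others, a difference of -6.51 points (-7.63 to -4.91), with 2.84% in the windows of all distal sites. The E-box CAGCTG was found at 9.86% and 13.7% (-5.86 to -1.32), with 8.96% in the windows. The motif GTTGCCA, a half-site of RFX factors, was found at 1.57% and 2.83% (-2.00 to -0.0191), with 2.11% in the windows.

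For the other 7 motifs the interval of the difference included 0. They were the NFI motif TTGGCA, at 9.86% against 10.9% and with 9.96% in the windows, and the GATA motif AGATAA, at 10.3%, 9.75% and 11.7%. The homeodomain motif TAATTA stood at 4.71%, 5.60% and 6.12%. The E-box CACGTG stood at 2.86%, 4.20% and 2.57%. The SOX motif ACAATGG stood at 2.14%, 2.27% and 2.96%, and the forkhead motif TGTTTAC at 1.71%, 1.22% and 2.57%. The CRE TGACGTCA was not found at any of the 700 sites, which allows a share of up to 0.429% as 3 counts of 700, or 0.546% as the upper Wilson bound, and was found at 0.304% of the distal sites without DR4 and in 0.136% of the windows.

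Half-site repeats with another spacing were found beside the DR4 element more often than at the distal sites without DR4, for each of the 8 spacings. The largest share was that of DR1, with 15 sites or 2.14% against 0.304% (difference 0.994 to 3.20), followed by DR3 with 13 sites or 1.86% against 0.234% (0.850 to 2.92). The window of a distal DR4 site holds by its definition 2 half-sites that can pair with a further one, and how many of these repeats share a half-site with the DR4 element was not tested.

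The 700 sites were spread over many genes. They had 656 different nearest genes, of which 41 were the nearest of 2 or more sites, and Brinp1, Hivep2 and Runx1t1, named here after their counts were seen, of 3 each. A distal DR4 site lay within 30 kb of the 5′ end of 482 of 21938 protein-coding genes, or 2.20%, and 8 genes had 2. By alphabetical order the first 5 of these were Cry2, Dnah6, Elmo2, Kcnk1 and Plppr5. The sites of Elmo2 lay 4725 and 3773 bp inside the gene, with fold enrichments of 14.8 and 6.11. The sites of Plppr5 lay 7134 bp upstream (9.55) and 28773 bp downstream of the 5′ end (14.5), and those of Kcnk1, a potassium channel gene, 18543 bp upstream and 27273 bp downstream (7.07 each). Dnah6 had a site without a mismatch 11012 bp upstream, with a fold enrichment of 11.9. Its second site, 28336 bp upstream (8.16), lay in an intron of Suclg1.

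Among 28 genes of the thyroid hormone response, 22 had some site of the list within 30 kb and 4 had a distal DR4 site, next to 53.3% and 2.20% of all genes. These 2 shares of all genes are the background for the lists that follow as well. Klf9, which encodes a transcription factor induced by T3 in neurons, had 8 sites within 30 kb, and its distal DR4 site lay 3738 bp upstream with a low fold enrichment of 6.31 and a pileup of 19. Its spacer ended in thymine and guanine. Nrgn encodes neurogranin, a calmodulin-binding protein of dendritic spines. The strong site in an intron of Siae (45.0), whose sequence is given above, lay 20330 bp upstream of Nrgn. Desi1, which encodes an enzyme that removes SUMO, had a site without a mismatch in an untranslated exon of Xrcc6, 18444 bp from the 5′ end of Desi1, with a fold enrichment of 13.8. Fndc5, the precursor of irisin, had 12 sites within 30 kb, of which the one with DR4 lay 3129 bp upstream (6.32, pileup 16). The other 24 genes of the list had no distal DR4 site within 30 kb.

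Of 31 genes of striatal projection neurons, 26 had some site, against 53.3% of all genes, and 3 had a distal DR4 site. Foxp1, a transcription factor of these neurons, had one 15717 bp inside the gene, in an intron, with a fold enrichment of 20.8. Its element was centred 87.5 bp from the summit and lay mostly in masked sequence. Gng7 encodes a G protein subunit of striatal receptor signalling, and its site, 3481 bp upstream, had the element 0.5 bp from the summit (8.45). Ano3 had its only site of the list 25671 bp upstream (13.8). Of 30 nuclear receptors and cofactors, 23 had some site within 30 kb, against 53.3% of all genes. Within this distance 1 had a distal DR4 site, Ppara, 28828 bp upstream (14.5). Sites further than 30 kb from the 5′ end of a list gene are not counted in these lists.

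All 16 circadian clock genes had some site within 30 kb, where 53.3% of all genes had one, and 3 had a distal DR4 site. Cry2, a repressor of the clock, had 2: one 12011 bp upstream (8.93), and one in a coding exon of the gene, 17805 bp from its 5′ end and nearer to that of Mapk8ip1 (5.95). Bhlhe41, also a repressor, had one in an untranslated exon (7.21). Csnk1d, the kinase that phosphorylates PER proteins, had one in an intron 16116 bp from the 5′ end (11.5). The lists hold 10 to 31 genes each, and with so few genes no difference between a list and the 2.20% of all genes was tested.

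Markers of other cells were looked at in the same way. 1 of 10 oligodendrocyte genes had a distal DR4 site, Mbp, the myelin basic protein, with an element without mismatch in an intron (7.77). 1 of 10 hepatocyte genes had one, Apoa1, 13989 bp upstream in an intron of Sik3 (20.1). Of the 10 genes each of astrocytes, microglia, endothelium and cardiac muscle, 0 had one, while 2, 2, 2 and 6 had some site, next to the 53.3% of all genes. Some site was also present at 4 of the oligodendrocyte genes and at 2 of the hepatocyte genes. The tagged receptor was carried by GABAergic neurons, as stated above, but peaks alone do not show which cells a fragment came from. The part of other cells was not tested.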

How the data were processed

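Chromatin of striatum was crosslinked with disuccinimidyl glutarate and formaldehyde, and 2 ChIP TRa libraries and 1 Input library were sequenced. The authors aligned the reads to GRCm38 (mm10) with Bowtie2 (2.3.2.2 in the submitters' processing notes), called peaks with MACS2 (2.1.1.20160309.0) and removed peaks with a score below 60. The handling of duplicates and of the 2 ChIP libraries was not given in the sources used here. The deposited values are the pileup, a coverage signal at the summit, the fold enrichment, a ratio of pileup to local background, −log10 of the q value at the summit, and the score. None is given per library, so that no replicate test and no p-value was possible.

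The reference was scanned for DR4 elements on both strands with Python 3.11.15, numpy 2.4.6 and pandas 2.3.3. The scan recovered all 300 elements planted in simulated sequence. Distances were taken to GENCODE 5′ ends of 21938 protein-coding genes. A repeat was masked where at least 8 of its 16 bases were in lower case. Unbound elements are those in no site of the list. Shares carry 95% Wilson intervals and differences of shares 95% Newcombe intervals, which treat sites and elements as independent. The members, gene lists, motifs and comparisons were chosen with earlier results of these data known. Named genes are those nearest to the 15 sites of highest fold enrichment and to the 10 strongest sites without a mismatch, list genes with a site within 30 kb, and the 5 genes with most sites within 30 kb, ties in alphabetical order. The sequences in untranslated exons are not shown, nor is that of Mbp. The list of GABAergic identity genes is not reported here.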

Additional observations from a re-analysis of the deposited data

How the results depend on the processing

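No paired analysis was possible because the list holds no values for single libraries, and for the same reason no library could be left out in turn. Of 118 alternative values, 83 kept their direction and their side of 0, or moved by less than their error or by less than 1.5 times. The difference in thymine at the third spacer base was among these under every alternative run. The fold enrichment comparison reversed with 2 mismatches allowed, where the share at or above 20 was higher than at the other distal sites by 3.02 points (main -1.65). It left 0 with -2.54 for elements within 200 bp, -2.36 beyond 5 kb from a 5′ end, -4.46 at a score of at least 100 and -6.24 at a score of at least 200. The difference in neighbouring sites no longer excluded 0 without mismatches (-7.67), within 50 bp (-1.84) and at a score of at least 200 (-1.59), that in AP-1 without mismatches (-1.90) and at a score of at least 200 (-3.32), and that in introns at a score of at least 200 (5.06). The settings under which these differences lost their call hold fewer sites, and the cause was not tested otherwise.

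The number of distal DR4 sites was 111 without mismatches, 2842 with 2 and 216 at a score of at least 200. Genes within 30 kb were 76, 1747 and 159 in these settings and 297 for elements within 50 bp, and 168 within 10 kb. The ratio of summits to control windows, 17.1, was 27.8 without mismatches, 6.66 with 2, 11.5 within 200 bp, 24.0 at a score of at least 200 and 25.9 with the windows to the left. Occupied shares, 3.48%, were 12.6% without mismatches, 1.18% with 2, 2.35% within 50 bp, 4.27% within 200 bp, 2.39% and 1.10% at scores of at least 100 and 200, and 4.39% outside masked sequence, a setting chosen after seeing the data. The share of elements near the summit, 45.6%, was 66.6% within 50 bp, 37.6% within 200 bp, 53.2% at a score of at least 200 and 74.7% for centres within 50 bp. The mismatch position was not run for other mismatch limits, nor the other motifs for other windows, 2 mismatches or the windows to the left.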

Other observations

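The 27 sites with 2 or more elements held 90 of the 763 elements. The site nearest to Kif20b held 14 elements within 100 bp of its summit and lay wholly in masked sequence, with a fold enrichment of 20.1, and the site in an intron near Gm13090 held 10, with 7.07. Both were named after their values were seen. Inside genes, the element lay on the strand of the gene in 43.9% of 458 sites and in 47.8% of 8814 unbound elements, a difference of -3.92 points with an interval of -8.52 to 0.770. Outside masked sequence the shares were 44.6% and 45.2%.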
